A study of Sus scrofa with 36 samples.

Results

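PDGFRA, COL3A1, DCN, LUM, DPT and MFAP5 are genes that mark fibroblasts and the progenitor cells from which fat cells form. These 6 genes were taken by name from the 12253 genes of the table and all 6 were found. They were described in subcutaneous adipose tissue of 36 F2 pigs from an intercross of Göttingen minipig boars with Duroc sows. The pigs had been chosen by the Obesity Index, a genetic value predicted from obesity traits, so the groups differ in predicted predisposition and not in a treatment. The labels call the groups Low, Mean and High, and they are named lean, intermediate and obese here. Each group held 12 pigs, with 7 males and 5 females among the lean pigs and 6 of each sex in the other groups. By the study's description the lean pigs were older at slaughter, so age and group cannot be told apart, and up to 3 full sibs could stand in a group. Each pig is 1 biological replicate with 1 RNA-Seq library. The main outcome was a difference between the sexes: DCN was higher in males. LUM, PDGFRA and COL3A1 differed by a similar size without passing, and no member passed the test between the obesity groups.

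Adipose tissue holds fat cells in a stroma of fibroblasts, vessels and immune cells. PDGFRA is a receptor for platelet-derived growth factors and is a common surface marker of adipose progenitors. The other members are secreted into the matrix: COL3A1 forms type III collagen fibrils, DCN (decorin) and LUM (lumican) are small leucine-rich proteoglycans that bind collagen and set fibril size, DPT (dermatopontin) binds decorin and assists fibril assembly, and MFAP5 is a glycoprotein of the fibrillin microfibrils. DCN and LUM are next to each other on chromosome 5 in the RefSeq annotation, with KERA and EPYC of the same gene family beside them.

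Recovered reads per pig over all genes ranged from 8735839 to 11755925, with a median of 10496910. The values below are normalized counts, that is reads divided by the size factor of the pig. Differences, folds, SEs and correlations come instead from the deposited log2 values, in which depth is corrected in part, and were also computed with the whole size factor as an alternative. Gene length is not corrected, so levels are compared between pigs and never between genes. The least covered value of a member was that of PDGFRA, with 186 reads in 1 pig, where counting alone gives an error of 7.33%. COL3A1 took 1.02 to 5.31% of a pig's recovered reads over the genes of the table, and the 6 members together took 1.25 to 6.32%. Other cells were present: 6 adipocyte markers, 5 endothelial, 8 mural, 7 macrophage and 5 T or NK cell markers were measured, while the listed markers of skeletal muscle, mesothelium and Schwann cells were not found by name and are not analysed here. Only 8425 of the 12253 identifiers had a symbol. Lean pig 7, a male, stood apart in DSP, a desmosome gene of the skin list, with 14094 normalized counts against at most 933 in any other pig. The group, sex and interaction comparisons of the members over all pigs, and the counts of the lists for obese minus lean and male minus female, were also run without this pig, and of their calls only that of PNPLA2 changed. Printed medians that moved by over 1.5 times without it are given with the lists or here. The skin median for obese minus lean went from -0.64 to -0.22 without this pig. For male minus female the skin median went from -0.04 to -0.29 and the mural median from -0.01 to -0.04. In bulk tissue, fewer cells of a type and less RNA per cell cannot be told apart.

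The members differed strongly from pig to pig, and most of all MFAP5 and DPT. The ratio of the highest to the lowest pig was 16.0 for MFAP5, 10.4 for DPT, 7.33 for LUM, 5.80 for PDGFRA, 5.09 for COL3A1 and 4.69 for DCN. After group and sex terms, the SD between pigs on the log2 scale was 1.03 for MFAP5, which was above that of 98.1% of all genes. It was 0.90 for DPT, above 96.4% of genes, and 0.45 for DCN, above 71.8%. The median over all genes was 0.33. The progenitor receptor PDGFRA and the collagen-binding LUM were between these, with 0.59 and 0.63.

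**Figure D1:**
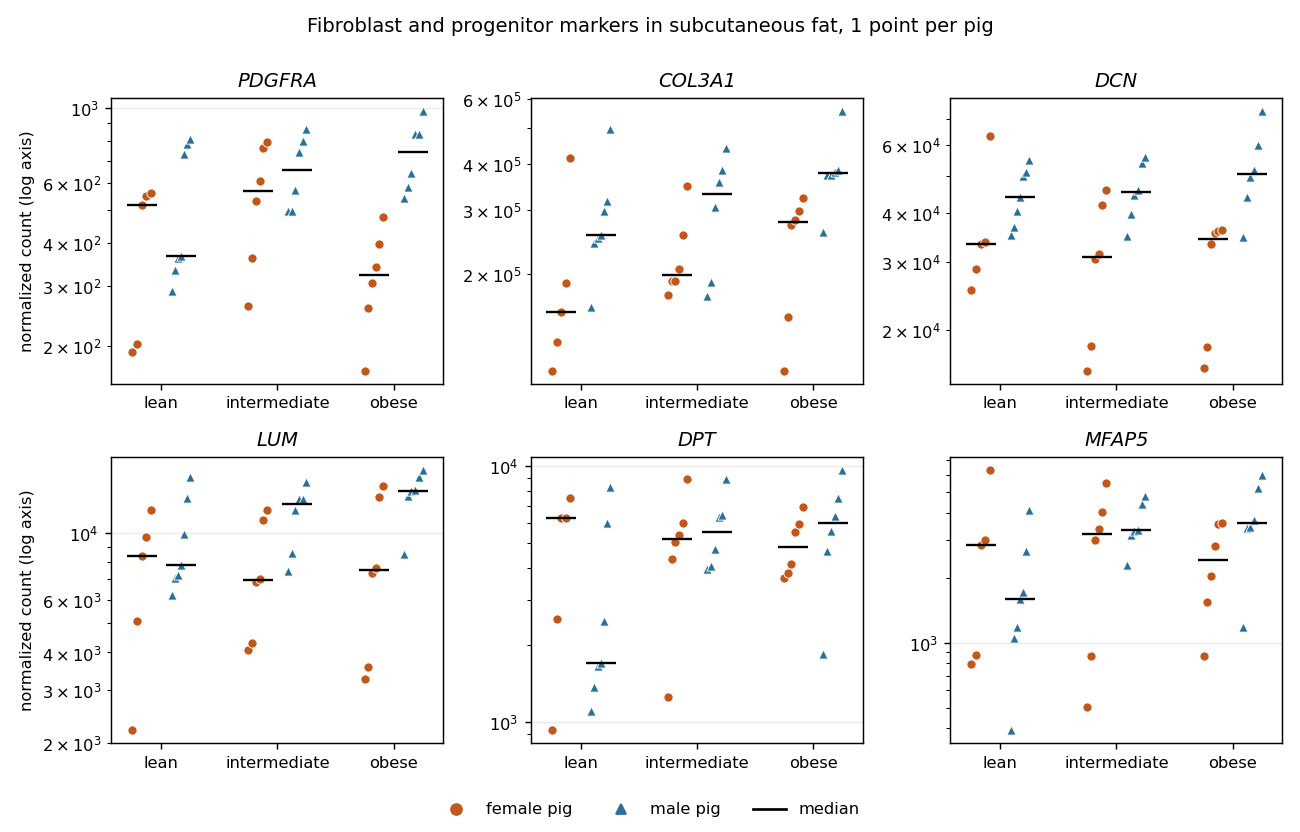
Normalized count (log axis) of each member in each of the 36 pigs, by obesity group (x axis), with females as circles, males as triangles and a bar at the median of each sex. Male DCN lies between 34654 and 73582 in all groups, and in the obese group every male is above every female for PDGFRA.

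DCN was the only member whose difference between the sexes passed over all pigs. In the 19 males its normalized counts ranged from 34654 to 73582 with a median of 45824, and in the 17 females from 15676 to 63428 with a median of 33286. All 19 males were above the median of the females, and 11 of the 17 females were below the lowest male. The highest female, lean pig 1 with 63428, was the only female above the male median beside intermediate pig 1 with 46049. The mean was 47419 ± 9947 (SD, n = 19) in males and 31944 ± 11995 (SD, n = 17) in females. The difference was 0.62 on the log2 scale (SE 0.150), or 1.54-fold, and passed limma with an adjusted p of 0.0222 over all genes. It passed in each of the 36 fits that left out 1 pig, with adjusted p from 0.00214 to 0.0427. Over all genes, 0.955% were higher in males and 1.23% were lower by the same test, and 1 of the 6 members was among the higher ones.

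LUM, PDGFRA and COL3A1 had differences between the sexes of the same size as DCN, but did not pass after correction over all genes. LUM had normalized counts of 6222 to 16152 in males (median 12911) and of 2204 to 14359.6 in females (median 7364), which overlap over most of their range. Its difference of 0.68 on the log2 scale (SE 0.20) had an adjusted p of 0.0594 in limma. PDGFRA lay between 289.7 and 981 in males (median 643) and between 169 and 794 in females (median 399). It differed by 0.64 (SE 0.190, adjusted p = 0.0605 in limma).

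COL3A1 ranged from 163419 to 557040.4 in males (median 316859) and from 109367 to 413842 in females (median 191713). It differed by 0.59 (SE 0.181) with an adjusted p of 0.0738 in limma. The call of these genes depended on the fit. PDGFRA passed with each pig's median subtracted (adjusted p = 0.0499) and with voom weights (0.0468), COL3A1 passed with voom weights (0.0453), and LUM passed in none of these. Without lean pig 1, the female with the highest DCN, all 4 of these genes passed limma, with adjusted p of 0.0248 for PDGFRA, 0.0149 for COL3A1, 0.0199 for LUM and 0.00214 for DCN. In that fit 260 of all genes were higher and 286 lower in males, against 117 and 151 over all pigs. These were the most calls of any fit that left out 1 pig. All 4 also passed limma without intermediate pig 4, where 147 of all genes were higher and 140 lower. The adjusted p was then 0.0443 for PDGFRA, 0.0498 for COL3A1 and 0.0421 for LUM.

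DPT and MFAP5 had smaller differences over all pigs. The sexes overlapped over nearly the whole range of both genes. DPT had a median of 4749 in males and 5362 in females, and its difference was -0.06 (95% confidence interval -0.64 to 0.52). MFAP5 had a median of 3305 in males and 2836 in females, with a difference of 0.28 (interval -0.38 to 0.95). Within the groups the difference of MFAP5 was -0.54 among lean pigs, against 0.67 among intermediate and 0.70 among obese ones, none of which passed limma. With 1 pig left out the difference among obese pigs ranged from 0.46 to 1.02, and that over all pigs from 0.14 to 0.44. The log2 ratio of 2 members in the same pig was compared between the sexes for all 15 pairs, by permutation within groups, to ask whether the members differ in this respect. The ratio of DCN to DPT was higher in males by 0.68 (permutation p = 0.00778) and that of LUM to DPT by 0.74 (permutation p = 0.00374), but none of the 15 ratios passed the Benjamini-Hochberg (BH) correction. The ratio of DCN to MFAP5 differed by 0.34 (permutation p = 0.169), so no test separated MFAP5 from DCN. The ratios of PDGFRA to DCN, COL3A1 to DCN and DCN to LUM differed by 0.02, -0.03 and -0.06 (permutation p = 0.908, 0.803 and 0.679). DCN was thus not separated from PDGFRA, COL3A1 or LUM either.

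**Figure D2:**
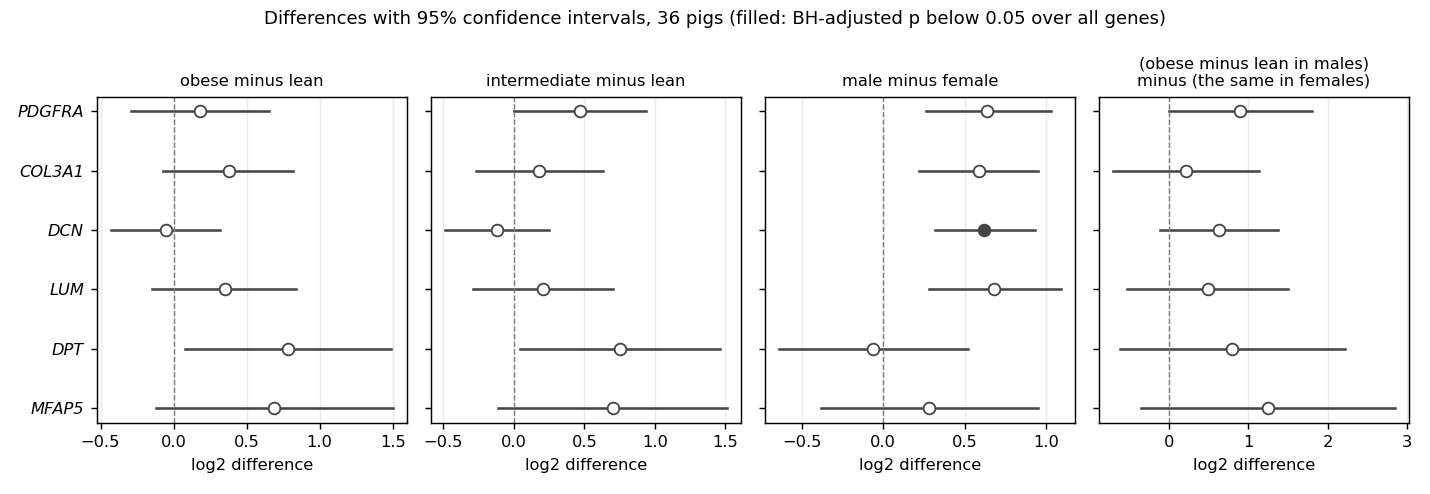
Differences of the 6 members on the log2 scale (x axis) with 95% confidence intervals, for obese minus lean, intermediate minus lean, male minus female, and the difference between males and females in obese minus lean. The filled point, DCN in male minus female at 0.62, is the only one with an adjusted p below 0.05.

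Within the groups, the sex difference of every member but DPT was largest among the obese pigs. PDGFRA ranged from 169 to 477 in the 6 obese females (median 323) and from 545 to 981 in the 6 obese males (median 741), with no overlap. All males were above all females for 1.79% of all genes in that group. The difference in PDGFRA was 1.25 on the log2 scale (SE 0.312), with an adjusted p of 0.0240 in limma and an exact permutation p of 0.00216 over 924 arrangements, which is the smallest p this design allows. DCN ranged from 15973 to 36256 in obese females (median 34389) and from 34654 to 73582 in obese males (median 50628), and 5 of the 6 males were above every female. It differed by 0.91 (SE 0.256, limma adjusted p = 0.0404). Among the obese pigs 2.45% of genes were higher in males by this test.

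COL3A1 and LUM differed by 0.80 and 0.93 in the obese pigs with adjusted p of 0.149 and 0.120 in limma. In lean pigs the sex differences of PDGFRA and DCN were 0.36 and 0.29, and in intermediate pigs 0.32 and 0.66, none of which passed limma, where the adjusted p ranged from 0.703 to 0.990. By the same test 0.00816% of all genes were higher in lean males and 0.0163% in intermediate males. PDGFRA in obese pigs passed in 33 of the 36 fits that left out 1 pig and DCN in 30. The adjusted p of PDGFRA rose to at most 0.0835 when obese pig 2, 4 or 11 was left out. That of DCN rose to at most 0.135 when obese pig 1, 2, 4, 5, 11 or 12 was left out. Whether the sex difference itself differed between lean and obese pigs was tested as an interaction, given further below, and it did not pass.

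Between obese and lean pigs no member passed, and only 0.0408% of all genes did, while 14.7% had an unadjusted p below 0.05. All 5 genes that passed were lower in obese pigs, but this direction depended on the fit, with 9 genes higher and 8 lower with voom weights, and 191 higher and 101 lower without lean pig 2. The largest differences were those of the matrix proteins DPT and MFAP5. Both were named through the study's list of modules kept for their correlation with obesity-related traits in these pigs. Their rank among the members is thus not independent of that selection. DPT ranged from 927 to 8289 in lean (median 2512), from 1249.6 to 8949 in intermediate (median 5202) and from 1837 to 9650.3 in obese pigs (median 5552). Of the 12 lowest pigs 7 were lean, and 5 lean pigs were below the lowest obese pig, but 4 lean pigs were also among the 12 highest. Obese minus lean was 0.78 on the log2 scale (SE 0.348, interval 0.08 to 1.49), or 1.72-fold, with an unadjusted p of 0.0305 and an adjusted p of 0.279 in limma. Intermediate minus lean was 0.75 (unadjusted p = 0.0385 and adjusted p = 0.374 in limma), and both comparisons share the lean pigs. Intermediate and obese pigs differed by 0.04 (interval -0.67 to 0.74).

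MFAP5 ranged from 392 to 6289 in lean pigs (median 1652), from 504 to 5466 in intermediate (median 3309.8) and from 869.9 to 6006 in obese pigs (median 3418). Both the lowest and the highest pig of all 36 were lean, so the groups overlapped fully at the top. Intermediate minus lean was 0.70 (SE 0.400, adjusted p = 0.478 in limma), with 10 of the 12 intermediate pigs above the lean median. Among the lean pigs the SD on the log2 scale was 1.17 for MFAP5 and 1.18 for DPT, against 0.84 and 0.63 among the obese pigs. The difference in spread was not tested.

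PDGFRA was highest in the intermediate pigs. It ranged from 192 to 809 in lean (median 444), from 262 to 868 in intermediate (median 592) and from 169 to 981 in obese pigs (median 511). Intermediate minus lean was 0.47 (SE 0.232, unadjusted p = 0.050 and adjusted p = 0.399 in limma), and obese minus lean was 0.18 (adjusted p = 0.769). No gene in the table passed for intermediate minus lean, where 12.5% had an unadjusted p below 0.05, and none passed for obese minus intermediate, where 4.28% did.

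COL3A1 and LUM had their highest medians in the obese pigs, without passing the test, and DCN had no such order. The median of COL3A1 was 247840.0 in the lean group, 230687 in the intermediate group and 309477 in the obese group. Obese minus lean was 0.38 (SE 0.221, adjusted p = 0.440 in limma). LUM had medians of 8102, 9816 and 13233, and obese minus lean was 0.35 (SE 0.245, adjusted p = 0.533). Without lean pig 6, which had the lowest LUM and DPT of all pigs, it was 0.21 for LUM and 0.62 for DPT. DCN had medians of 38679, 40830.4 and 36097, with 4 of the 12 highest and 4 of the 12 lowest pigs in every group. Its difference of -0.05 (interval -0.43 to 0.32) was the smallest in size of the 6 members. For no member did neighbouring groups in the order of the medians pass the test. No member passed for obese minus lean, intermediate minus lean or obese minus intermediate in any of the 36 fits that left out 1 pig, lean pig 7 included.

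When the sexes were taken apart, obese minus lean was 1.14 in males and 0.34 in females for DPT, 1.24 and -0.01 for MFAP5, and 0.61 and -0.29 for PDGFRA. The value for DPT in females rested on lean pig 6 (927 normalized counts): without it the female difference was -0.15, and 1 of the 6 obese females was above the lean median. With 1 pig left out the female values ranged from -0.33 to 0.41 for MFAP5, from -0.53 to -0.11 for PDGFRA and from -0.15 to 0.61 for DPT, each highest without lean pig 1. Those of PDGFRA and MFAP5 were lowest without lean pig 3, and MFAP5 had the same value without lean pig 6. In males all 6 obese pigs were above the median of the 7 lean males for PDGFRA, COL3A1, LUM and DPT. In females none of the 6 obese pigs was above the lean median for PDGFRA. Tested as an interaction, the difference between the sexes was 0.90 for PDGFRA, 1.25 for MFAP5 and 0.80 for DPT, and none passed limma, with adjusted p of 0.388, 0.497 and 0.641. With 1 pig left out the interaction ranged from 0.72 to 1.14 for PDGFRA, from 0.83 to 1.57 for MFAP5 and from 0.53 to 1.28 for DPT, and it passed in none of these fits. The lowest values were those without lean pig 1, and the highest those without lean pig 3 for PDGFRA, lean pig 3 or 6 for MFAP5 and lean pig 6 for DPT. The exact permutation of the sexes within the lean and the obese group, over 731808 arrangements, gave p of 0.142, 0.141 and 0.314. For all 6 members the difference was positive, though that of COL3A1 was -0.11 without lean pig 1, and over all genes its median was 0.09 and 0.00816% of the genes passed. With the whole size factor the median over all genes was 0.00, so a small part of these values moves with the scaling.

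The members varied together from pig to pig beyond the groups and sexes. After both terms were removed, Pearson's r over the 36 pigs ranged from 0.229 to 0.835 over the 15 pairs, with a median of 0.576. Of the 15 pairs, 14 passed a permutation test with BH correction, and 13 with Spearman's rho. The share of passing pairs over all genes was not computed. It thus cannot be told whether the members varied together more than other genes in these libraries. The highest r was that of DPT with MFAP5 (r = 0.835, rho = 0.852, permutation p = 1.00e-05, the smallest these resamples can give), which fell to 0.792 without the 2 pigs farthest from the median. Both genes were named through the study's list of co-expression modules, which were built from these same pigs. Their r may be partly selected in these data, so its p is not an independent test. DCN and MFAP5 had r = 0.804 and rho = 0.799, and the adjacent genes DCN and LUM had r = 0.711 and rho = 0.645.

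COL3A1 had its highest r with LUM (r = 0.699, rho = 0.656) and DCN (r = 0.659, rho = 0.645). Its r with DPT was 0.229 (rho = 0.234, permutation p = 0.181), the pair that did not pass over all pigs. Among females alone this pair had r = 0.537 (rho = 0.623, permutation p = 0.0269) and passed, and among males r was -0.106. No test compared the r of one pair with that of another. The r of PDGFRA with the other members ranged from 0.377 with COL3A1 to 0.527 with MFAP5. Its pairs with COL3A1, DCN and LUM had r of 0.324, 0.290 and 0.335 without the 2 most extreme pigs, with permutation p of 0.0616, 0.0975 and 0.0530. COL3A1 with MFAP5 (r = 0.391) fell to r = 0.187 without the 2 pigs (permutation p = 0.289), so this pair rested on them. Among the 17 females alone 12 of the 15 pairs passed, and among the 19 males 5 passed. DPT with MFAP5 had r = 0.859 in females and 0.798 in males. DCN with LUM had r = 0.832 in females and 0.269 in males, COL3A1 with DCN 0.859 and 0.307, and PDGFRA with COL3A1 0.691 and -0.151. The difference between the sexes in r was not tested.

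**Figure D3:**
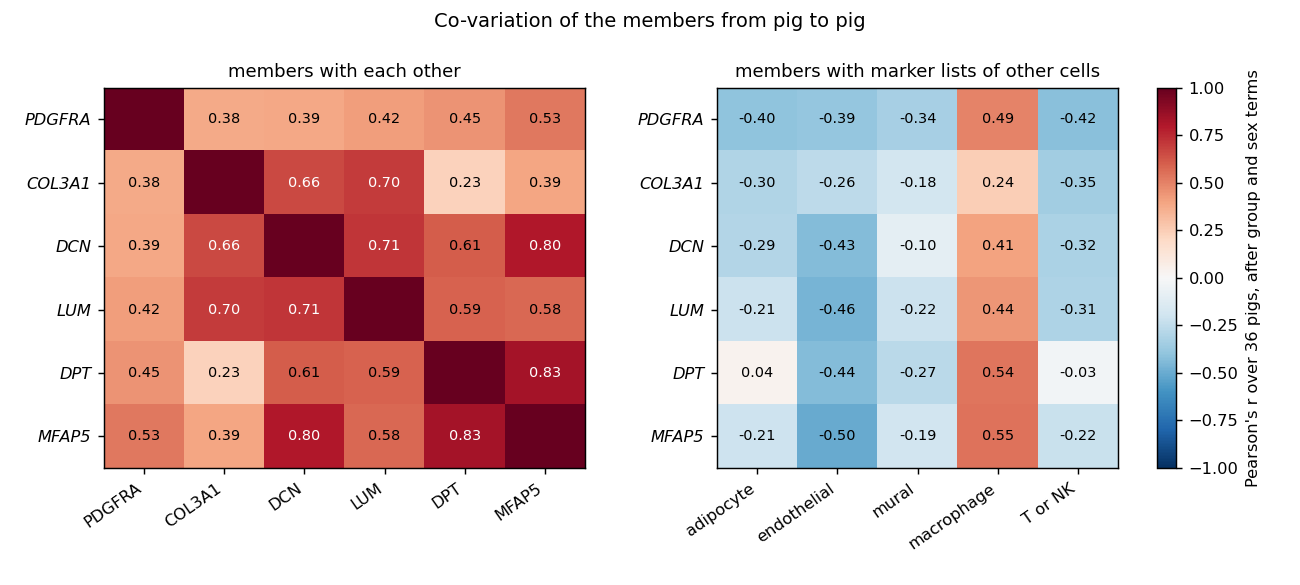
Pearson's r over the 36 pigs after group and sex terms, between the members (left) and between each member and the mean scaled level of the markers of another cell type (right). DPT with MFAP5 is the highest pair of members at r = 0.835, and the macrophage column is positive for every member while the endothelial column is negative for every member.

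Single pigs showed both patterns. Obese pig 4, a male, had the highest value of COL3A1 (557040.4), DCN (73582), LUM (16152) and DPT (9650.3) of all 36 pigs. Obese pig 2, a female, was lowest in PDGFRA with 169 and second lowest in COL3A1, DCN and LUM. In these pigs the members were high or low together.

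Lean pig 4, a male, did not. Its COL3A1 of 496967 and LUM of 15388 were the second highest of the 36 pigs, while its MFAP5 of 392 was the lowest and its DPT of 1370.5 the fourth lowest. Intermediate pig 8, a female, had the lowest DCN (15676) and the second lowest MFAP5 (504), but a PDGFRA of 794 that was the highest of the females.

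**Figure D4:**
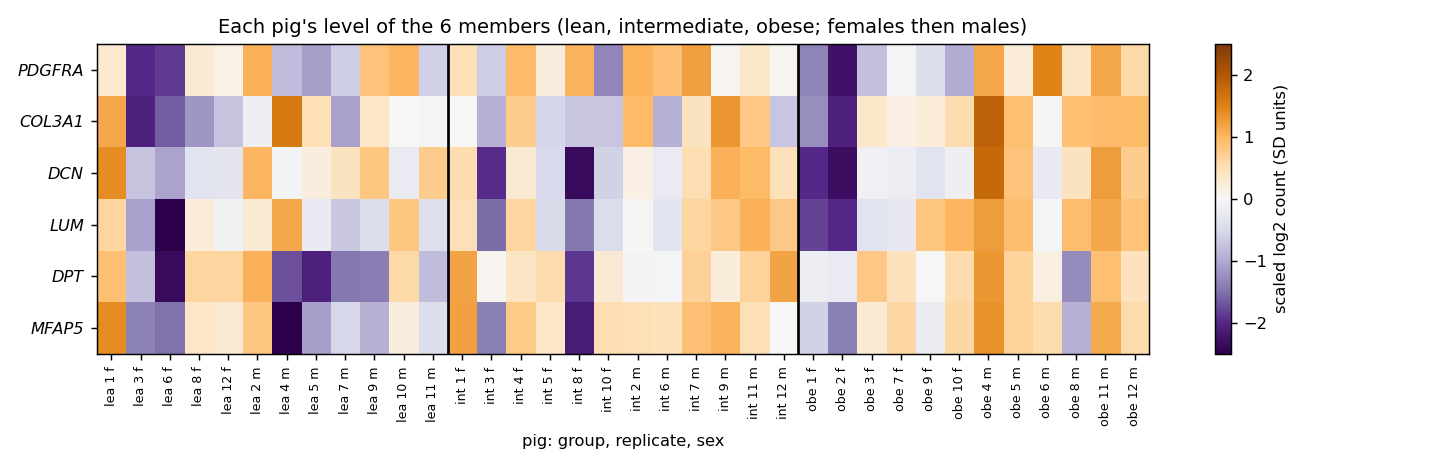
Level of each member (rows) in each pig (columns, by group and then sex), as log2 normalized counts centred on the gene's mean over the pigs and divided by its SD. Obese pig 4 is high in all rows and obese pig 2 low in most, whereas lean pig 4 is high in COL3A1 and LUM and lowest in MFAP5.

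Markers of other cells also varied with the members. All 6 members had a positive r with the macrophage list, of which 7 of 9 markers were measured, and 5 of these passed the permutation test with BH correction over the 30 pairs of a member and a list. The highest were MFAP5 with r = 0.546 (rho = 0.627, permutation p = 6.00e-04) and DPT with r = 0.537 (rho = 0.555, permutation p = 6.80e-04), and these were 0.463 and 0.477 without the 2 pigs whose list level was farthest from the median. That of DCN fell from 0.405 to 0.333 (permutation p = 0.0561). All 6 members had a negative r with the endothelial list, 5 of 9 markers measured, down to r = -0.503 for MFAP5 (rho = -0.514, permutation p = 0.00176), or -0.414 without the 2 pigs. Without them the endothelial r of PDGFRA was -0.303 and that of DCN -0.309, with permutation p of 0.0814 and 0.0771.

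The r with the adipocyte list depended on the 2 pigs with the most extreme level of that list. Over all pigs that of PDGFRA passed (r = -0.399, rho = -0.451, permutation p = 0.0161), and it was -0.481 without them. The other members did not pass, but without the 2 pigs r moved from -0.293 to -0.624 for DCN, from -0.304 to -0.573 for COL3A1, from -0.207 to -0.548 for MFAP5 and from -0.213 to -0.496 for LUM. The unadjusted permutation p were then 1.40e-04, 5.70e-04, 9.90e-04 and 0.00282. DPT moved from r = 0.037 to -0.293 (permutation p = 0.0931). With the T or NK list PDGFRA had r = -0.420 (rho = -0.379, permutation p = 0.0105), which was -0.283 without the 2 pigs most extreme in that list (permutation p = 0.103). In all 12 of the 30 pairs passed, but only 3 among females alone and 0 among males alone. With the whole size factor 11 passed and with the median subtracted 8. The pairs of PDGFRA with the adipocyte list and of DCN with the macrophage list passed under neither, with r of -0.365 and 0.358 under the whole size factor and of -0.342 and 0.358 with the median subtracted.

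The same lists were compared between the groups and sexes beside the members. The summed macrophage level ranged from 2619 to 14606 in lean (median 3701), from 3819 to 13914 in intermediate (median 7516) and from 6100.4 to 18570.4 in obese pigs (median 9873). All 7 macrophage markers had positive differences for obese minus lean, with a median of 0.80 against -0.01 over all genes. None passed limma, and 6 had an unadjusted p below 0.05. All 5 endothelial markers had negative differences for obese minus lean, with a median of -0.28. None passed limma, where 3 had an unadjusted p below 0.05, beside 14.7% of all genes. Their summed level ranged from 9938 to 17623 in lean (median 13375) and from 7992 to 13848 in obese pigs (median 11634). The other lists moved less evenly for obese minus lean, and none of their genes passed limma. Of the 5 T or NK markers 4 had positive differences, with a median of 0.61 and 1 unadjusted p below 0.05, and their summed level ranged from 621 to 1130.1 in lean (median 852) and from 684 to 2667 in obese pigs (median 881). Of the 8 mural markers 2 had positive differences, with a median of -0.31. Their summed level ranged from 4670.1 to 17433 in lean (median 7090.5) and from 5044 to 14024 in obese pigs (median 6935). Among them CSPG4, a proteoglycan of pericytes, was 0.95 (SE 0.213, adjusted p = 0.0683 in limma) and NOTCH3, a receptor of mural cells, was -0.34 (SE 0.148, adjusted p = 0.265), the only ones with an unadjusted p below 0.05. Of the 6 adipocyte markers 5 had positive differences, with a median of 0.10 and 2 unadjusted p below 0.05. Without lean pig 7 the median was 0.04 for the adipocyte list, with 4 positive, and -0.20 for the mural list. Of the 5 blood markers 2 were measured, HBB (a globin chain) with 0.88 (SE 0.611) and ALAS2 (an enzyme of haem synthesis in red cells) with 0.74 (SE 0.55), and neither had an unadjusted p below 0.05. Their summed level ranged from 186 to 16052 in lean (median 1481) and from 459.5 to 18078 in obese pigs (median 1978). The blood and skin lists had 2 measured genes each and were not used for correlations. The part of macrophage, endothelial, T or NK, mural, adipocyte or blood content in the differences of DPT and MFAP5 was not tested.

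Between the sexes the adipocyte, macrophage and T or NK markers had the opposite sign to DCN. The summed level of the adipocyte markers, over 6 of the 10 listed genes, ranged from 30285 to 74040.4 in males (median 62741) and from 39794 to 106235 in females (median 83923). All 6 adipocyte markers had negative differences for male minus female, with a median of -0.35 against -0.01 over all genes. The lipases LIPE (-0.55, SE 0.112, adjusted p = 0.00534) and PNPLA2 (-0.37, SE 0.104, adjusted p = 0.0483), which release fatty acids from stored fat, were lower in males by limma. With the whole size factor, the median subtracted, voom weights or without lean pig 7, LIPE was the only one of this list that passed. All 7 macrophage markers had negative differences for male minus female, with a median of -0.31. None passed limma, and 2 had an unadjusted p below 0.05, a level that 18.3% of all genes reached between the sexes. The 5 T or NK markers measured had a median of -0.86 for male minus female. None passed limma, where 4 had an unadjusted p below 0.05, and CD2 passed as lower in males with the whole size factor, the median subtracted or voom weights. The 2 blood markers had a median of -0.76 for male minus female, with no unadjusted p below 0.05. The part of these cells in the higher DCN of males was not tested. DCN was higher in males with and without lean pig 7.

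**Figure D5:**
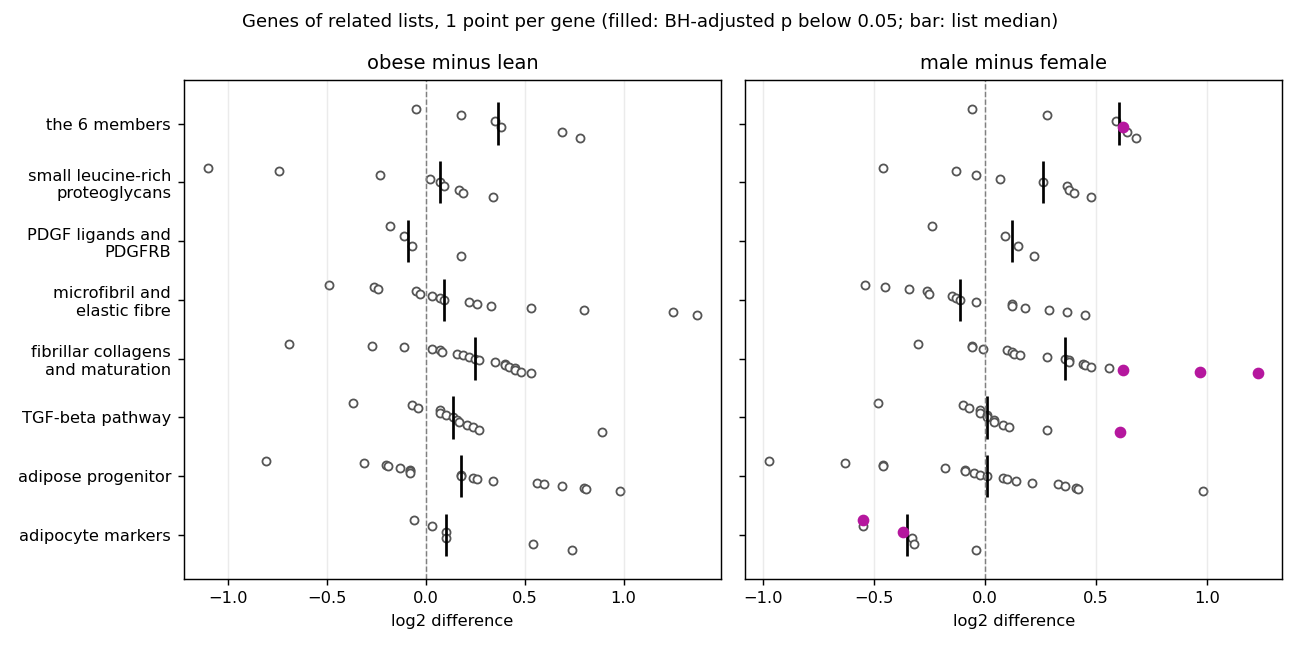
Differences on the log2 scale (x axis) for obese minus lean and male minus female, with 1 point per gene, grouped into the members and lists of related genes (y axis), and a bar at the median of each list. No gene of these lists passed for obese minus lean, whereas DCN, COL1A2, P4HA3, PCOLCE and TGFB2 were higher and LIPE and PNPLA2 lower in males.

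Genes that work with the members were compared in the same fit, by lists chosen for their role. Of the list of fibrillar collagens and their maturation, 19 of 25 genes were measured, and 3 passed as higher in males and none as lower, beside 0.955% of all genes. The list also holds COL6A1, COL6A2, COL6A3 and COL14A1, which are not fibrillar collagens. COL1A2, a chain of type I collagen, had 78058 ± 33948 normalized counts (SD, n = 19) in males and 39863 ± 19473 (SD, n = 17) in females, a difference of 0.97 (SE 0.204, adjusted p = 0.00676 in limma). PCOLCE, which enhances the cleavage of procollagen, differed by 0.62 (SE 0.137, adjusted p = 0.0113), and P4HA3, a prolyl hydroxylase of collagen, by 1.23 (SE 0.340, adjusted p = 0.0457). The median of the list was 0.36 for male minus female and 0.25 for obese minus lean, where 16 of 19 were positive, none passed limma and 7 had an unadjusted p below 0.05, beside 14.7% of all genes. Without lean pig 7 the same 3 genes passed. P4HA2, another prolyl hydroxylase, with 0.56 (adjusted p = 0.0520 in limma), passed as higher in males with the whole size factor, the median subtracted or voom weights.

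In the TGF-beta pathway 1 of 13 measured genes passed, the ligand TGFB2, which was higher in males by 0.61 (SE 0.168, adjusted p = 0.0457 in limma), where 0.955% of all genes were higher and 1.23% lower in males. The median of this list was 0.01 for male minus female. For obese minus lean it was 0.14, or 0.09 without lean pig 7. None of the 4 measured genes of the PDGF system passed limma, 0 had an unadjusted p below 0.05, and their differences between the sexes were from -0.24 for the ligand PDGFA to 0.22 for PDGFD. PDGFRB, the other receptor, had a difference of 0.15 (SE 0.101, adjusted p = 0.441), where PDGFRA had 0.64.

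None of the 9 other small leucine-rich proteoglycans passed limma in either comparison. At an unadjusted p below 0.05, 3 were higher in males and 2 lower in obese pigs, beside 18.3% and 14.7% of all genes in either direction. Their median was 0.26 for male minus female and 0.07 for obese minus lean, or 0.02 without lean pig 7. FMOD (fibromodulin) had the largest difference between the sexes, 0.48 (SE 0.223, adjusted p = 0.243 in limma). KERA (keratocan), next to LUM in the genome, had the lowest for obese minus lean, -1.10 (SE 0.462, adjusted p = 0.241), where LUM had 0.35. With the whole size factor, the median subtracted or voom weights, PODN of this list passed as higher in males.

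Of the microfibril and elastic fibre genes, to which MFAP5 belongs by function, 15 of 18 were measured and none passed limma. At an unadjusted p below 0.05, 3 were higher in obese pigs (all genes 14.7% in either direction), and 2 were higher and 3 lower in males (all genes 18.3%). ELN (elastin) had the largest difference for obese minus lean, with 7815 ± 3189 normalized counts (SD, n = 12) in obese and 4224 ± 4804 (SD, n = 12) in lean pigs, or 1.37 on the log2 scale (SE 0.457, adjusted p = 0.134 in limma). MFAP2, a related microfibril protein, had 0.45 for male minus female (SE 0.144, adjusted p = 0.0839). The list as a whole had a median of -0.11 for male minus female and 0.09 for obese minus lean, or 0.05 without lean pig 7.

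Of the adipose progenitor genes 19 of 26 were measured and none passed limma. At an unadjusted p below 0.05, 5 were higher in obese pigs (all genes 14.7% in either direction), and 3 were higher and 2 lower in males (all genes 18.3%). PI16, a marker of early progenitors, had the largest difference for obese minus lean, 0.98 (SE 0.422, adjusted p = 0.255 in limma), and POSTN (periostin) the lowest, -0.81 (SE 0.439, adjusted p = 0.395). The medians were 0.18 for obese minus lean and 0.01 for male minus female.

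The 3 genes whose levels were most like those of each member from pig to pig were taken by Pearson's r over the 36 pigs after group and sex terms. For MFAP5 they were PCSK6 (0.950), a proprotein convertase, ADGRD1 (0.942) and ADAMTSL4 (0.935), a protein of the microfibrils. For COL3A1 they were the collagens COL1A2 (0.905) and COL5A1 (0.897) and the collagen-binding SPARC (0.859). For DCN they were the type VI collagen chain COL6A2 (0.885), the collagen receptor MRC2 (0.859) and GLT8D2 (0.854). LUM was followed by P4HA2 (0.869), MRC2 (0.863), which it shared with DCN, and SERPINF1 (0.851). DPT was followed by VIT (0.879), TSHZ2 (0.874) and PCOLCE2 (0.865).

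PDGFRA had lower values, with ITGB3 (0.838), VCAN (0.781) and YEATS2 (0.768). The mean of the 6 members was most like COL14A1 (0.905), a collagen on the surface of fibrils, MAN1A1 (0.896) and PLCE1 (0.884), and all 3 chains of type VI collagen, COL6A1, COL6A2 and COL6A3, were among the 10 most similar genes. These values share the same libraries and are descriptions without a test. The study had also placed MFAP5 and PCSK6 in the same co-expression module, built from these pigs.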

How the data were processed

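Total RNA of subcutaneous adipose tissue was sequenced from 36 pigs (12 per group), with poly-A selection. Per the labels and methods, the authors used STAR for mapping to Sscrofa10.2, HTSeq for counts of reads per gene, DESeq for size factors and voom of limma. The deposited log2 values are the log2 of reads plus 0.5 over the size factor plus 1, so depth is corrected in part. Size factors were 0.796 to 1.18, and 100.0% of values under 3000 reads came out whole within 0.1. The deposited values are not corrected for sex.

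limma 3.58.1 (R 4.3.3) was fitted over all 12253 genes with group and sex, an intensity trend and BH correction at 0.05. On simulated obese minus lean data it recovered 187 of 200 genes changed by 1, with 10 false calls. Every simulated gene had the same dispersion and the simulated pigs were independent. The wider spread of some members, such as an SD of 1.03 for MFAP5, was not simulated. The simulation thus does not give the power of the tests for the members. Correlations and ratios used 100000 permutations. p-values are two-sided.

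Symbols were found for 8425 identifiers, DPT and MFAP5 by the names in the study's Additional file 1. It lists the genes of co-expression modules that were built from these pigs and kept for their correlation with obesity-related traits. Named list genes were those that passed in the main or another fit, those with the largest and smallest difference, and the most similar genes. The mural genes with an unadjusted p below 0.05, the measured blood genes, and DSP for lean pig 7 were named as well. The members, lists and tests were chosen with earlier results of these data known. The comparison of sexes within groups, the ratios, and the lists under other scalings or without lean pig 7 were added later. Sequences, lanes, family relations and phenotypes were not used here.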

Additional observations from a re-analysis of the deposited data

How the results depend on the processing

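No paired analysis was possible because the labels give each pig its own number. The higher DCN of males kept its direction and its call under the whole size factor, median subtraction, voom weights, no intensity trend, removal of the lowest 25% of genes and each pig left out. Within groups, a choice made after seeing the data, it did not pass in lean (0.29) or intermediate pigs (0.66). By the same fit PDGFRA passed in obese pigs (1.25), DPT was 0.29 in intermediate and 0.15 in obese pigs, and MFAP5 was -0.54 in lean pigs, against the sign over all pigs. With 1 pig left out the value of DPT in obese pigs ranged from -0.02 to 0.47, so its sign depended on single pigs. With median subtraction or voom weights PDGFRA was 0.66 for male minus female and passed, as did COL3A1 at 0.60 with voom weights. With 1 pig left out, male minus female was 0.58 to 0.71 for PDGFRA (passing in 6 of 36), 0.52 to 0.68 for COL3A1 (2), 0.58 to 0.77 for LUM (5) and -0.19 to 0.05 for DPT (0). The cause was not tested.

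In fits of 1 sex some differences between the obesity groups changed sign. An interaction with sex was fitted for obese minus lean only, and it passed for no member. Obese minus lean was -0.29 for PDGFRA and -0.00557 for MFAP5 in females and 0.23 for DCN in males, intermediate minus lean was 0.04 for DCN in males, and obese minus intermediate was 0.18 for PDGFRA, -0.03 for DPT and 0.00823 for MFAP5 in males and -0.01 for COL3A1 and -0.06 for DCN in females. None passed. Leaving out 1 pig gave -0.12 to 0.06 for DCN in obese minus lean, -0.02 to 0.14 for DCN, -0.15 to 0.17 for DPT and -0.22 to 0.12 for MFAP5 in obese minus intermediate, and -0.11 to 0.40 for COL3A1 in the difference of the sexes. The number of all genes that passed for obese minus lean, 5, was 3 without sex, 9 with the whole size factor or median subtraction, 17 with voom weights (9 higher) or the 2 groups alone (4 higher), 12 without the trend, 1 without the lowest genes, 2 in males, 21 in females (18 higher), and 1 to 292 with 1 pig left out (most without lean pig 2, with 191 higher). The passing pairs of members fell from 14 to 5 in males, and those with marker lists from 12 to 0 in males and 3 in females. The cause was not tested. Without lean pig 6 obese minus lean of LUM was 0.21, PDGFRA ranged from 0.10 to 0.28 with 1 pig left out, and MFAP5 in male minus female from 0.14 to 0.44.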
